A study of Arabidopsis thaliana with 9 samples.

Results

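The results below set anthers of the Arabidopsis thaliana mutant ams against wild-type anthers, with 3 arrays per genotype out of 9 in the study. The ams arrays carry the mutant label ams. The labels used here give no allele, lesion or genetic background for it. The wild-type arrays are of Columbia plants. Anthers at stages 4 to 7 were dissected from young floral buds, so the RNA is of whole anthers and not of the tapetum alone. Another tapetal mutant, dyt1, supplied the other 3 arrays, which entered the test only through the pooled spread between arrays. The labels call the arrays of a genotype biological replicates.

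AMS (ABORTED MICROSPORES) encodes a basic helix-loop-helix transcription factor of the tapetum, the innermost layer of the anther wall. The tapetum surrounds the meiocytes and later the microspores, feeds them, releases the enzyme that frees them from their callose wall, and delivers precursors of the pollen wall and the lipids and phenolics of the pollen coat before it degenerates. Plants without AMS are male sterile.

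Expression is given as log2 values per probe set. A difference is ams minus wild type, so a positive value means more signal in ams. A gene is called here when its adjusted p was under 0.05 in limma's moderated test, with Benjamini-Hochberg adjustment over 22746 probe sets. Of these, 13513 named 1 gene, and they stood for 13355 genes, each represented by its brightest probe set. A group mean at or under 4.78, the highest lower quartile of any array, was not told from background. For such a gene the difference is one of signal and no fold is given.

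The wild-type arrays were not alike, which is why each change is also given against wild type 3 alone. The 25S ribosomal RNA control stood at 11.6, 11.96 and 12.4 in ams 1 to 3, against 5.51, 9.59 and 12.4 in wild type 1 to 3. Poly-A spike-ins averaged 6.69 to 6.72 in ams, against 3.85, 3.76 and 7.03 in wild type. The excess of the actin 3' over the 5' signal, which grows as RNA degrades, was 2.67 to 2.92 in ams, against 1.25, 1.28 and 2.81 in wild type. Wild type 3 thus stood with the ams arrays in all 3 controls, and wild type 1 and 2 stood apart. Across probe sets wild type 3 correlated with the ams arrays at 0.940 to 0.957 and with wild type 1 and 2 at 0.939 and 0.930. The part of these signals in the differences from wild type 1 and 2 was not tested.

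**Figure D1:**
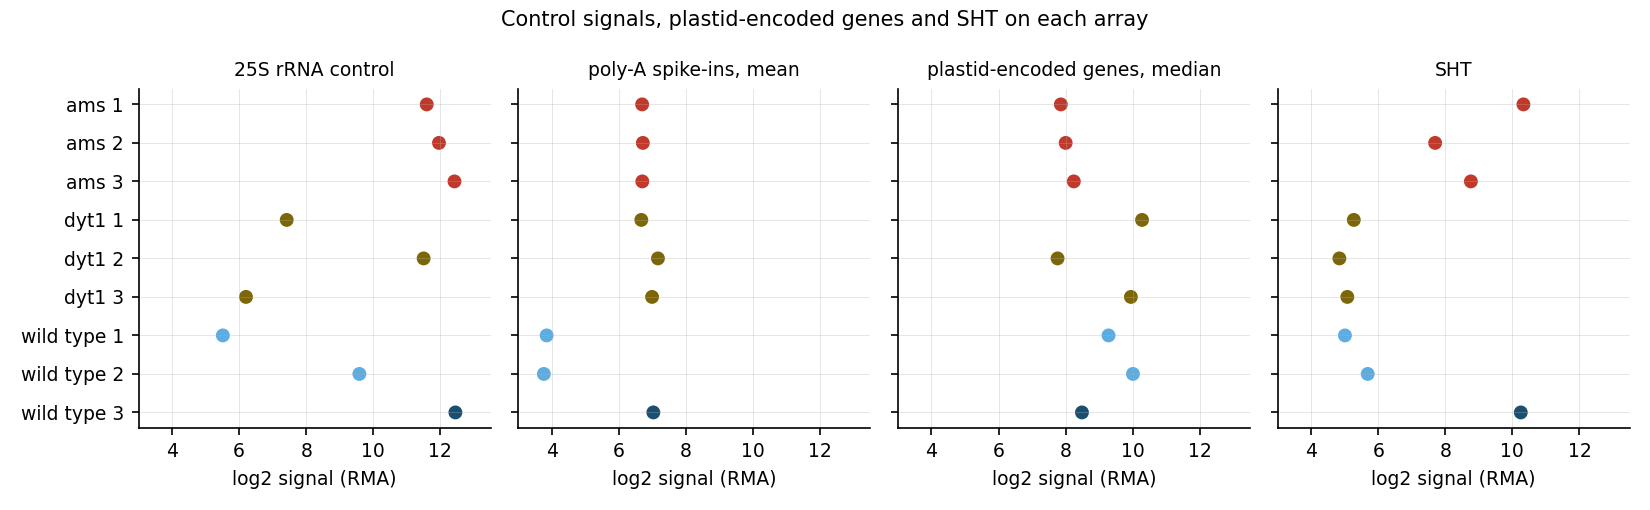
Log2 signal (x axis) of the 25S ribosomal RNA control, the mean poly-A spike-in, the median plastid-encoded gene and SHT on each of the 9 arrays (rows, 1 point each, ams above dyt1 above wild type). Wild type 3 has the 25S signal, the spike-in signal and the SHT level of the ams arrays, which wild type 1 and 2 do not have.

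Measured genes of the anther lists ranged widely in level in both genotypes. In the early anther list ROXY1 averaged 5.29 in ams and 5.36 in wild type, and JAG 5.89 in ams and 5.42 in wild type. The anther regulator SPL and the receptor kinase EMS1 stood at 8.38 or higher on every ams and wild-type array, and the tapetal gene AT5G62080 at 7.65 to 10.5 in ams and 12.4 to 13.5 in wild type. Of the 6 measured genes of maturing pollen, ACT12, AGL66 and AGL104 had group means under 4.78 in both genotypes. The other pollen genes were above it. TUA1 read 7.32 to 7.34 in ams and 7.62 to 7.94 in wild type, AGL65 5.77 to 6.30 in ams and 5.67 to 6.44 in wild type, and the LAT52-like gene AT5G45880 5.84 to 5.89 in ams and 6.23 to 7.76 in wild type. The leaf genes RCA and LHCB4.1 were bright in both genotypes, at 11.2 to 12.4 in ams and 11.3 to 12.3 in wild type, and neither was called. No probe set named DYT1 or any member of the floral organ identity and jasmonate lists, which were not analysed here.

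In ams anthers 322 genes rose and 144 fell against the 3 wild-type arrays, which is 2.41% and 1.08% of the genes measured. Rises had a median of 1.41 and falls a median of -1.08, while all 13355 genes had a median of -0.06. Over all probe sets 558 rose and 240 fell (2.45% and 1.06%). Centring every array on its own median, which took the median of all genes to -0.18, gave 417 higher and 332 lower probe sets. Leaving out ams 1, 2 or 3 took the 798 called probe sets to 335, 296 and 361. Leaving out wild type 1, 2 or 3 took them to 279, 352 and 4146, and leaving out dyt1 2 or dyt1 3 to 1624 and 487. In whole anthers, fewer cells of a type and less RNA per cell cannot be told apart.

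Against wild type 3 alone, 334 genes were higher and 359 lower (2.5% and 2.69%), or 618 and 583 probe sets (2.72% and 2.56%). This test takes its spread from the 3 ams arrays, and the lone wild-type array is assumed to vary like them. A total of 226 genes were called in both comparisons in the same direction, 176 higher and 50 lower (1.32% and 0.374% of genes), from 285 and 82 probe sets (1.25% and 0.361%). That is 54.7% of the rises and 34.7% of the falls. The comparisons share the ams arrays and wild type 3, so the count describes which changes hold and is no second test. Without ams 1, 2 or 3 the calls against wild type 3 numbered 523, 627 and 733 probe sets and those in both 151, 162 and 183, and without wild type 1 those in both numbered 238.

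The other 240 called genes also kept their direction against wild type 3. All 466 called genes had their 3 ams values beyond wild type 3 on the same side, with medians against it of 1.36 for rises and -0.93 for falls. In all 466 the ams values also lay beyond all 3 wild-type values. Over all 13355 genes, 1652 lay higher and 2276 lower in ams without overlap. Among probe sets, 378 rises and 114 falls had all 3 ams arrays beyond wild type 3 and an ams mean at least 2-fold from it (1.66% and 0.501%). None of the called genes lost its difference against this array or had under 0.25 of it there. A gene whose wild-type values spread widely could hardly be called at all, so this follows in part from the first test. In that test 2847 genes had an unadjusted p under 0.05.

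**Figure D2:**
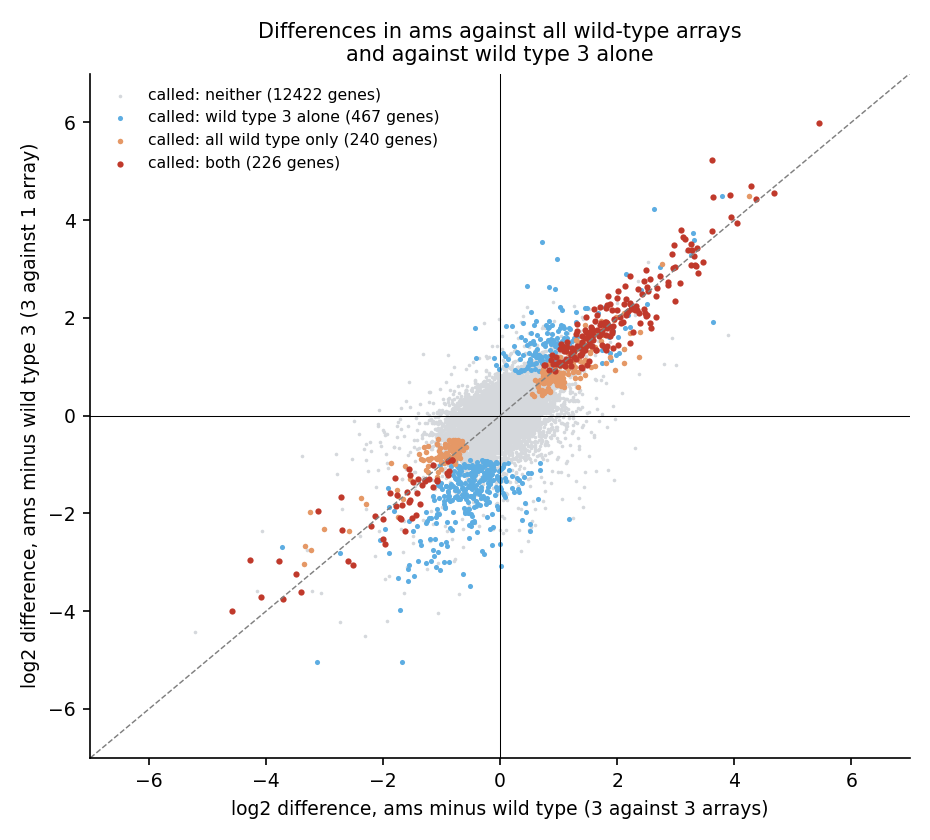
Log2 difference of each of 13355 genes (points) in ams against all 3 wild-type arrays (x axis) and against wild type 3 alone (y axis), coloured by the comparison that called it; the dashed line marks equal differences. The genes called in both lie near the line on both sides. Of those called against wild type 3 alone, some lie off the line, such as PUB23 and CHIL. Others, such as CP1 and NDB3, lie near the line and far from the middle of the x axis. The 2 axes share the ams arrays and wild type 3.

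Among rises that held, DELTA-VPE had the largest difference. It encodes a vacuolar processing enzyme, a cysteine protease first described in the seed coat. Its level was 9.72, 10.3 and 9.99 in ams 1 to 3, against 5.33, 4.33 and 4.02 in wild type 1 to 3, the lowest being wild type 3. The difference was 5.45 (SE 0.37, limma adjusted p = 0.000134) and 5.99 against wild type 3 alone (adjusted p = 0.00314). Wild type 2 and 3 lay below the background limit and wild type 1 above it, and all 3 ams arrays were far above every wild-type array.

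The next 4 rises carry only a locus name here, and their arrays were tight within each genotype. AT3G16750 stood at 8.44, 8.43 and 8.18 in ams, against 3.65, 3.56 and 3.79 in wild type (4.68, adjusted p = 1.63e-05, and 4.56 against wild type 3, adjusted p = 0.00314). AT2G01090 read 8.31, 8.16 and 8.43 in ams and 3.81, 4.08 and 3.87 in wild type (4.38, adjusted p = 5.43e-06, and 4.43, adjusted p = 0.00314). AT1G80970 was at 9.68, 9.62 and 9.65 in ams and 5.60, 5.53 and 4.95 in wild type. The wild-type level of AT1G80970 was above background, and it rose 19.6-fold (4.29, SE 0.19, adjusted p = 1.75e-05), or 25.9-fold against wild type 3. AT5G45500 had 8.08, 8.19 and 8.43 in ams and 4.35, 4.33 and 4.17 in wild type (3.95, adjusted p = 4.99e-05, and 4.06, adjusted p = 0.00417). Of these genes and DELTA-VPE, wild type 3 was the wild-type array nearest to ams for AT3G16750 alone.

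Of the 176 rises that held, 23 had a gene symbol, and the largest of them spanned metabolism, sugar and cell wall synthesis. The cytochrome P450 CYP71B26 stood at 10.8, 9.87 and 9.11 in ams, against 6.0003, 6.79 and 6.15 in wild type. It rose 12.3-fold (3.62, SE 0.42, adjusted p = 0.00261) and was 13.76-fold above wild type 3 (adjusted p = 0.036). Its ams arrays spread over more than 1 log2 unit, and all 3 lay above every wild-type array.

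LUL1, a RING-type ubiquitin ligase, read 7.32, 7.33 and 7.68 in ams and 4.08, 4.12 and 4.01 in wild type (3.37, adjusted p = 0.000125, and 3.43 against wild type 3, adjusted p = 0.00536). ATSPS4F, a sucrose phosphate synthase and so an enzyme of sucrose synthesis, read 7.58, 7.13 and 7.57 in ams and 4.57, 4.34 and 4.75 in wild type (2.87, adjusted p = 0.018, and 2.68, adjusted p = 0.0102). MSRB5, which reduces oxidised methionine in proteins, read 7.43, 6.63 and 6.33 in ams and 4.40, 4.33 and 3.99 in wild type (2.56, adjusted p = 0.00175, and 2.80, adjusted p = 0.0306). These 3 genes were not told from background in wild type, and wild type 3 was the lowest wild-type array for LUL1 and MSRB5 and the highest for ATSPS4F.

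Single genes of the cell wall and the plasma membrane also rose. CSLC04, a synthase of the glucan backbone of xyloglucan, had 8.53, 8.48 and 8.07 in ams and 6.77, 6.10 and 6.20 in wild type, a 4.01-fold rise (2.00, adjusted p = 0.0456) and a 4.47-fold difference from wild type 3 (adjusted p = 0.0154). TET3, a tetraspanin of the plasma membrane, had 7.08, 7.38 and 6.75 in ams and 4.93, 4.43 and 4.91 in wild type (2.31, adjusted p = 0.0263, and 2.16, adjusted p = 0.0201). EXPA9, an expansin that loosens walls, had 6.21, 6.36 and 5.90 in ams and 5.26, 5.06 and 4.74 in wild type (1.14, adjusted p = 0.0259, and 1.41, adjusted p = 0.0362). The groups did not overlap in any of the 3, as in all 466 called genes. In wild type TET3 averaged below background. EXPA9 was the 1 rise among 18 measured expansins, beside 2.41% of all genes.

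Another 4 of these rises read as follows. ZW9 had 6.67, 6.73 and 7.53 in ams and 4.35, 4.72 and 4.34 in wild type (2.50, adjusted p = 0.000888, and 2.63, adjusted p = 0.0253). QQS, a gene found only in Arabidopsis thaliana that affects starch content, had 6.22, 6.69 and 5.74 in ams and 4.45, 4.40 and 4.05 in wild type (1.92, adjusted p = 0.00385, and 2.17, adjusted p = 0.0398). CSA1, a receptor-type resistance protein of the TIR-NBS-LRR class, had 6.30, 6.36 and 5.78 in ams and 4.73, 4.73 and 4.33 in wild type (1.55, adjusted p = 0.00464, and 1.82, adjusted p = 0.0306). In wild type all 3 genes averaged at or below background. The glutathione transferase GSTU16 had 7.99, 7.77 and 7.96 in ams and 5.29, 5.34 and 6.43 in wild type, so it was 4.67-fold above the wild-type mean (2.22, adjusted p = 0.00486) and 2.80-fold above wild type 3 (1.48, adjusted p = 0.0197). Wild type 3 lay between the genotypes for GSTU16, and the size of its rise depended on the wild-type arrays used.

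**Figure D3:**
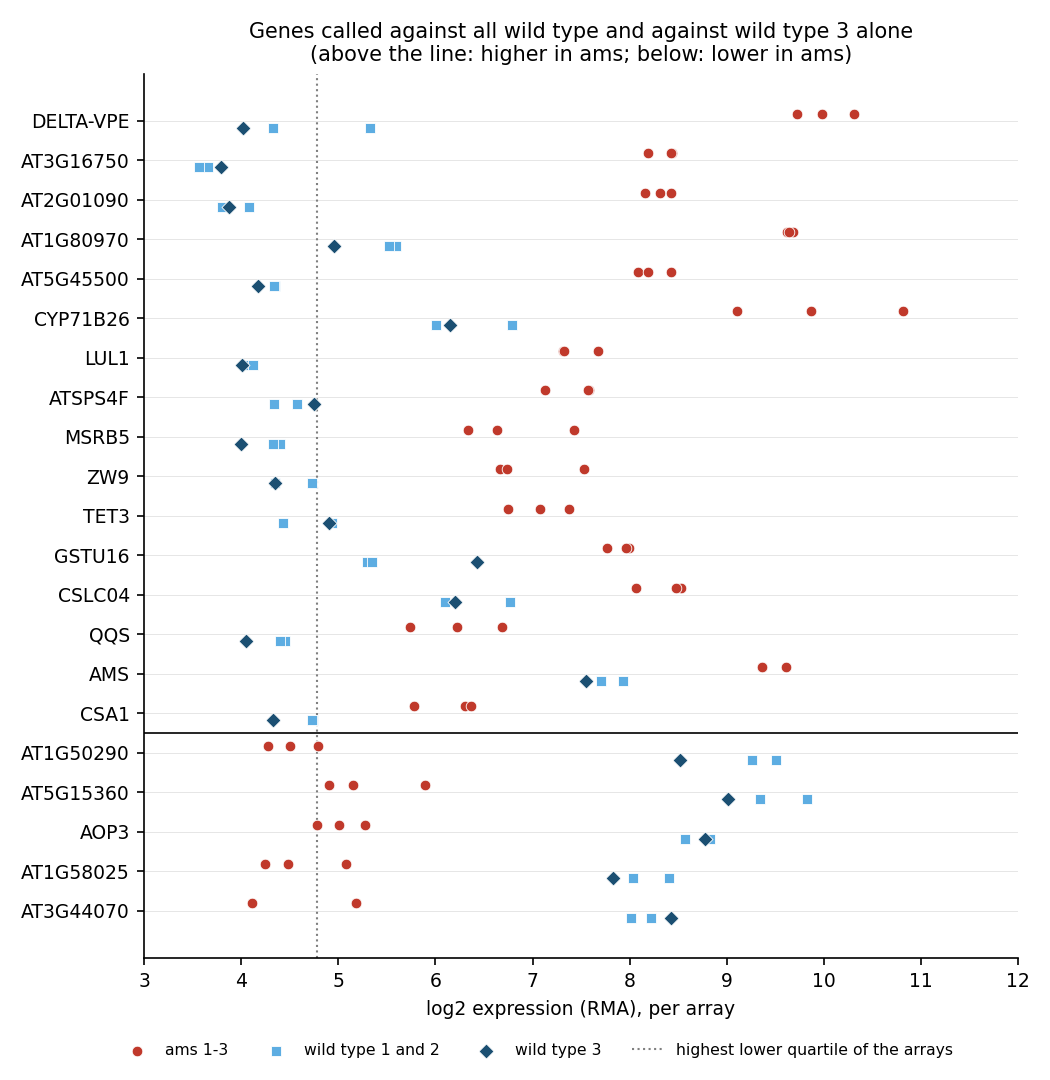
Log2 expression per array (x axis) of the genes that led the changes called in both comparisons (rows), with circles for ams 1 to 3, squares for wild type 1 and 2, a diamond for wild type 3 and a dotted line at 4.78. All ams circles lie on one side of all wild-type symbols in every row, which the choice of these genes required. The wild type 3 diamond sits with the squares in nearly all rows, farthest from them in GSTU16.

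The following rises with a symbol also held, and they were named after their values were seen. RALFL33, a member of the RALF signalling peptide family, had 8.99, 8.84 and 8.94 in ams and 6.66, 7.15 and 7.50 in wild type (1.82, adjusted p = 0.00321, and 1.43 against wild type 3, adjusted p = 0.0183). MTP11, a manganese transporter, had 10.2, 9.96 and 10.1 in ams and 8.93, 8.87 and 8.95 in wild type (1.16, adjusted p = 0.00175, and 1.13, adjusted p = 0.0341). The ubiquitin-conjugating enzyme UBC37 rose by 1.46 and the proline iminopeptidase PIP by 1.92. 2A6 (1.46), CXE18, a carboxylesterase (1.51), GPDHp (1.21) and URE, the urease (1.40), also rose. The differences of these 8 genes from wild type 3 ran from 0.98 for URE to 2.01 for 2A6. All 8 lost 1 of their calls or both when single arrays were left out. Against wild type 3, RALFL33 lost its call without ams 1 (adjusted p = 0.0554), UBC37 without ams 1 or 2 (0.0841 and 0.0905), and MTP11, PIP, CXE18, GPDHp and URE without any 1 ams array (0.0549 to 0.11). Against all wild type, the call was lost by PIP without ams 2 or 3 or wild type 1 or 2 (0.0661 to 0.0784), by GPDHp without ams 1 or 2 or wild type 1 (0.0509 to 0.058) and by CXE18 without any 1 ams array or wild type 1 or 2 (0.0661 to 0.0925). URE lost it without those arrays or dyt1 3 (0.0502 to 0.134), and 2A6 without those, dyt1 1 or dyt1 3 (0.0507 to 0.133).

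Falls that held were fewer, and AOP3 was the 1 of 50 with a symbol. AOP3 is an oxygenase that makes hydroxyalkyl glucosinolates from methylsulfinylalkyl ones. It had 5.28, 5.004 and 4.78 in ams, against 8.57, 8.83 and 8.78 in wild type, and fell 13.0-fold (-3.70, SE 0.60, adjusted p = 0.0148), or 13.5-fold against wild type 3 (adjusted p = 0.00536). AOP3 was the 1 fall among 6 measured glucosinolate genes, beside 1.08% of all genes, and the other 5 were not called. By limma 5 of the 6 had an unadjusted p under 0.05, beside 2847 of all 13355 genes. Directions were mixed, with 3 of the 6 differences above 0. Among the uncalled genes AT2G25450, entered in the list as GSL-OH, read 7.95, 7.79 and 7.37 in ams and 5.65, 5.31 and 7.94 in wild type (1.41, adjusted p = 0.211), so wild type 3 stood at the ams level. The glucosyltransferase UGT74B1 read 8.83, 8.82 and 8.55 in ams and 7.64, 8.24 and 7.90 in wild type (0.80, adjusted p = 0.11).

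The other leading falls have locus names alone. AT1G50290 stood at 4.27, 4.79 and 4.50 in ams, against 9.51, 9.27 and 8.52 in wild type (-4.58, adjusted p = 0.00164, and -4.00 against wild type 3, adjusted p = 0.00529). AT5G15360 stood at 4.90, 5.15 and 5.89 in ams and 9.83, 9.34 and 9.02 in wild type, which is 16.9-fold lower (-4.08, adjusted p = 0.000346) and 13.0-fold lower than wild type 3 (adjusted p = 0.0142). Both were bright in every wild-type array and near background in ams.

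AT1G58025 stood at 4.25, 4.48 and 5.07 in ams and 8.41, 8.03 and 7.83 in wild type (-3.49, adjusted p = 0.000138, and -3.23, adjusted p = 0.0142). AT3G44070 stood at 5.18, 4.11 and 5.18 in ams and 8.23, 8.02 and 8.43 in wild type (-3.40, adjusted p = 0.000662, and -3.60, adjusted p = 0.0206). For AT3G44070 and AOP3 the difference was as large against wild type 3 as against all wild type, and for AT1G50290, AT5G15360 and AT1G58025 it was smaller.

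Of all genes called in both, 64 rises and 13 falls were at least 4-fold in both comparisons, and 22 rises and 5 falls at least 8-fold. The wild-type mean was not told from background in 57 of the 176 rises, and the ams mean was not in 17 of the 50 falls. The median difference was 1.82 for these rises and -1.61 for these falls. All 226 genes were also called against wild type 1 and 2 with wild type 3 left out. With the 25S class of the array as a covariate (high above 11), 163 of the rises and 46 of the falls stayed called. All ams arrays, wild type 3 and dyt1 2 were of the high class. The class effect was thus set by the wild-type and dyt1 arrays alone, and this fit leans again on wild type 3. Both refits share the ams arrays with the first comparison, so neither is an independent check.

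Leaving out 1 array at a time tested how far these calls rest on single arrays. Both calls were kept in every such omission by 62 of the 176 rises and 13 of the 50 falls. DELTA-VPE, AT3G16750, AT2G01090, AT1G80970, AT5G45500 and LUL1 among the rises, and AT1G50290, AT5G15360, AT3G44070 and AT1G58025 among the falls, were of that kind. ATSPS4F and AOP3 lost the call against all wild type without any 1 ams array or without wild type 1 or 2 (adjusted p 0.0606 to 0.077 for ATSPS4F and 0.0525 to 0.0668 for AOP3). TET3 and CSLC04 did so too, and also without dyt1 3, and CSLC04 without dyt1 1 (0.0509 to 0.118 and 0.0525 to 0.16). EXPA9 lost that call without any 1 ams array or wild type 1 or 2 (0.0501 to 0.117). Against wild type 3, the call was lost without ams 1 by ZW9 (0.0538), TET3 (0.0625) and QQS (0.105) and without ams 2 by CYP71B26 (0.0729) and MSRB5 (0.0599). CSA1 and EXPA9 lost it without ams 1 or ams 2 (0.0629 to 0.0839 and 0.0703 to 0.0975), and GSTU16 without ams 1 or ams 3 (0.052 and 0.0582).

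AMS itself was higher in the arrays labelled ams. It read 9.61, 9.36 and 9.37 there, against 7.93, 7.70 and 7.55 in wild type, a 3.30-fold difference (1.72, SE 0.36, adjusted p = 0.0413) and a 3.73-fold difference from wild type 3 (adjusted p = 0.0131). The position of this probe set relative to the lesion was not known, so its level checks nothing about the label. The call was lost without ams 1, 2 or 3, wild type 1 or 2, or dyt1 3 (adjusted p 0.0772 to 0.146). Measured genes close to AMS on chromosome 2 also rose: AT2G16890 (9.34, 9.40 and 9.54 in ams, 5.87, 5.74 and 6.51 in wild type), AT2G16900 (10.3, 10.4 and 10.5 in ams, 7.67, 7.65 and 8.34 in wild type) and AT2G16990 (9.76, 9.81 and 9.999 in ams, 6.96, 6.88 and 6.25 in wild type) were called in both comparisons. That is 3 of the 10 measured genes nearest AMS by order, against 1.32% of all genes called higher in both, and they were noted after their values were seen. AT2G16890 lost its call against all wild type without any 1 ams array, wild type 1 or 2, or dyt1 3 (adjusted p 0.0502 to 0.118).

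**Figure D4:**
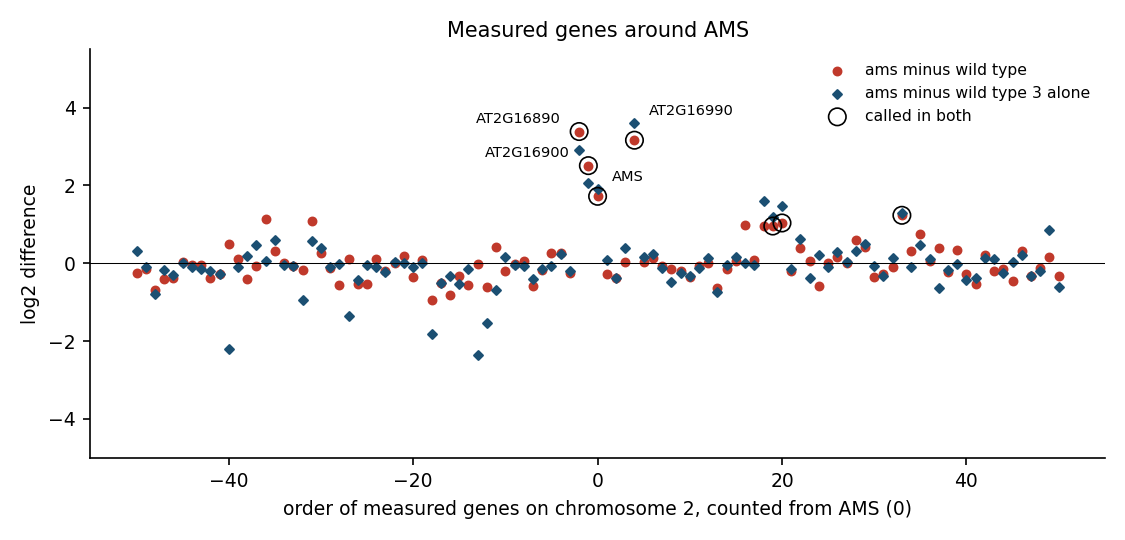
Log2 difference (y axis) of the 50 measured genes on each side of AMS on chromosome 2, by their order from AMS (x axis), against all wild type (circles) and wild type 3 alone (diamonds); open rings mark genes called in both. AMS, AT2G16890, AT2G16900 and AT2G16990 stand between 1.72 and 3.61, and most other genes lie near 0.

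Few genes of the tapetal lists were measured, so they are given gene by gene, beside 3.49% of all genes called in either direction. Of 3 measured tapetum transcription factors AMS alone was called. AT1G06170 read 9.27, 8.42 and 8.58 in ams and 9.98, 10.1 and 8.60 in wild type (-0.81, adjusted p = 0.667). AT2G31210 read 6.41, 5.75 and 5.94 in ams and 7.24, 7.85 and 6.30 in wild type (-1.09, adjusted p = 0.498). In both of these bHLH genes, entered in the list as BHLH089 and BHLH091, wild type 3 lay within the ams range, and only wild type 1 and 2 were above it.

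In the tapetal list for lipid transfer and pollen coat, with 6 genes measured, 1 fell, beside 1.08% of all genes, and it held against wild type 3. AT5G48490 stood at 8.49, 8.79 and 8.44 in ams, against 11.3, 11.5 and 10.9 in wild type, and fell 6.49-fold (-2.70, SE 0.24, adjusted p = 0.000612), or 5.07-fold against wild type 3 (adjusted p = 0.01). It kept both calls in every omission of 1 array. AT5G07230, entered as the tapetum-specific gene A9, stood at 10.4, 10.3 and 9.99 in ams and 13.0, 12.9 and 13.1 in wild type. Its groups did not overlap and its difference was -2.81 against wild type 3 (adjusted p = 0.00835), yet it was not called against all wild type (-2.74, adjusted p = 0.305). Over the 6 ams and wild-type arrays alone it was called (adjusted p = 0.00102). The dyt1 arrays, which enter the pooled spread, read 11.1, 4.68 and 10.8 for it.

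Other members of that list were uneven within ams. AT5G62080 read 10.5, 7.65 and 8.48 in ams and 13.5, 13.2 and 12.4 in wild type (-4.16, adjusted p = 0.0945, and -3.58 against wild type 3, adjusted p = 0.118), and it too was called over those 6 arrays (adjusted p = 0.0303). AT5G52160 read 10.5, 8.75 and 7.97 in ams and 9.82, 10.5 and 11.9 in wild type (-1.65, adjusted p = 0.273). ATA27, a beta-glucosidase of the anther, read 11.99, 9.09 and 11.7 in ams and 7.16, 7.13 and 11.6 in wild type. ATA27 therefore differed by 2.30 from all wild type (adjusted p = 0.301) and by -0.66 from wild type 3 (adjusted p = 0.773), a turn of sign. The median of the 6 genes was -2.17 against all wild type and -2.57 against wild type 3, beside -0.06 and -0.05 over all genes.

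None of the 3 measured genes of sporopollenin and exine was called by limma, and 0 had an unadjusted p under 0.05. SHT, which makes the hydroxycinnamoyl spermidines of the pollen coat, read 10.3, 7.70 and 8.76 in ams and 5.01, 5.69 and 10.3 in wild type (1.95, adjusted p = 0.398, and -1.32 against wild type 3, adjusted p = 0.452). The sugar transporter SWEET8 read 11.3, 9.87 and 11.5 in ams and 11.2, 11.4 and 12.4 in wild type (-0.79, adjusted p = 0.41). AT1G33430, entered as the galactosyltransferase KNS4, read 11.9, 10.5 and 11.1 in ams and 13.1, 12.8 and 12.2 in wild type (-1.60, adjusted p = 0.467). SHT and ATA27 were high in ams and in wild type 3, and much lower in wild type 1 and 2.

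The list of tapetal cell death and proteolysis held 1 rise, DELTA-VPE, and 1 fall among 4 measured genes, beside 2.41% and 1.08% of all genes. AT1G19230, entered as the NADPH oxidase RBOHE, read 5.76, 4.08 and 4.61 in ams, against 8.34, 8.32 and 7.84 in wild type (-3.35, SE 0.55, adjusted p = 0.0151). Against wild type 3 its difference of -3.03 did not pass (adjusted p = 0.0601), although all 3 ams arrays lay below it. The call against all wild type was lost without ams 2 or 3 or wild type 1 or 2 (adjusted p 0.0619 to 0.0737). BETA-VPE, another vacuolar processing enzyme, read 9.47, 8.91 and 8.28 in ams and 6.93, 6.74 and 7.38 in wild type (1.87, adjusted p = 0.212, and 0.0334 over the 6 ams and wild-type arrays alone). The aspartic protease UND read 7.72, 3.94 and 5.45 in ams and 4.98, 4.54 and 7.29 in wild type (0.10, adjusted p = 0.965), and its genotypes overlapped.

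**Figure D5:**
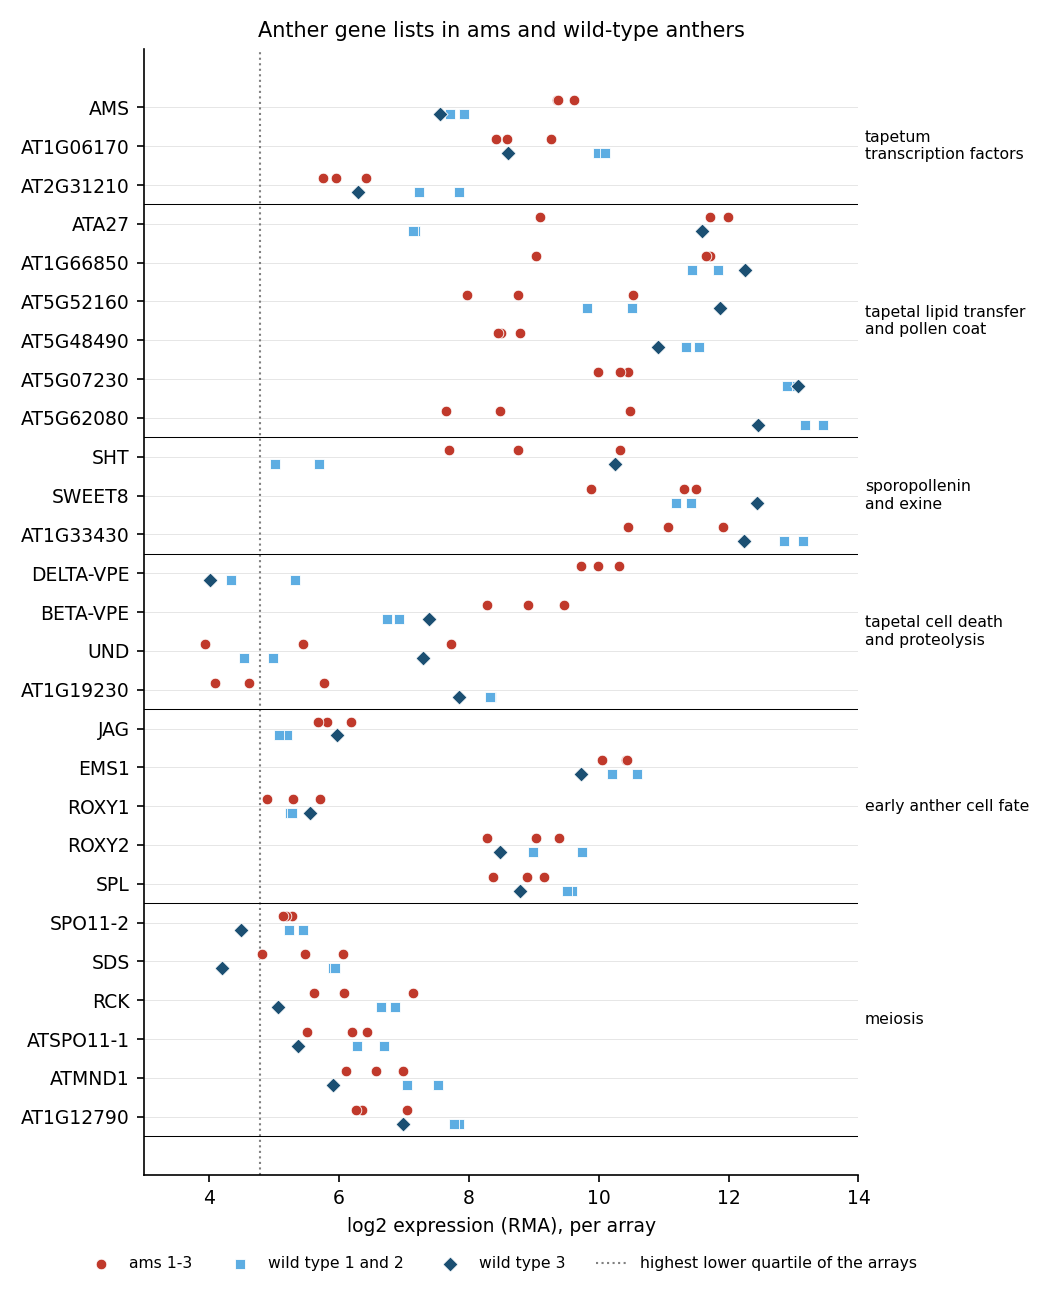
Log2 expression per array (x axis) of the measured genes of 6 anther gene lists (rows, grouped by list at the right), with circles for ams 1 to 3, squares for wild type 1 and 2, a diamond for wild type 3 and a dotted line at 4.78. AMS, DELTA-VPE, AT5G48490 and AT1G19230 separate the genotypes and were called. AT5G07230, AT5G62080, AT1G33430 and BETA-VPE separate them and were not called. In SHT and ATA27 the wild type 3 diamond lies with the ams circles.

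Genes of early anther cell fate and meiosis were not called by limma in either comparison, and 0 of the 5 and 6 measured had an unadjusted p under 0.05 against all wild type. The receptor kinase EMS1, needed to form the tapetum, read 10.4, 10.04 and 10.4 in ams and 10.2, 10.6 and 9.73 in wild type (0.12, adjusted p = 0.851). SPL, which starts sporogenous tissue, read 9.16, 8.38 and 8.90 in ams and 9.59, 9.52 and 8.78 in wild type (-0.49, adjusted p = 0.32). The 6 measured meiosis genes had a median of 0.01 against all wild type and of 0.69 against wild type 3. SDS, a meiotic cyclin, read 6.06, 5.47 and 4.81 in ams and 5.90, 5.94 and 4.204 in wild type (0.10, adjusted p = 0.935, and 1.25, adjusted p = 0.19). RCK, a meiotic helicase, read 7.14, 6.08 and 5.61 in ams and 6.86, 6.64 and 5.06 in wild type (0.09, adjusted p = 0.938, and 1.22, adjusted p = 0.27). For both, wild type 3 was the lowest of the 6 arrays.

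Enzyme families held scattered calls. Of 48 measured UDP-glycosyltransferases 4 rose and 1 fell, and 2 rises held, beside 2.41%, 1.08% and 1.32% of all genes, with a family median of 0.15 against all wild type and -0.11 against wild type 3. UGT88A1 read 9.41, 9.44 and 9.20 in ams and 7.74, 7.77 and 7.91 in wild type, a 2.92-fold rise (1.54, adjusted p = 0.000439, and 1.44 against wild type 3, adjusted p = 0.0209). UGT78D1, which adds rhamnose to flavonols, read 9.36, 9.49 and 9.36 in ams and 8.33, 8.66 and 8.34 in wild type, a 1.94-fold rise (0.96, adjusted p = 0.0179, and 1.06, adjusted p = 0.0363). The call of UGT78D1 was lost without any 1 ams array or wild type 1 (adjusted p 0.0624 to 0.0866), and against wild type 3 without any 1 ams array (0.073 to 0.0891). UGT88A1 lost its call against wild type 3 without ams 1 or ams 2 (0.0534 and 0.0643).

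Other called family members did not pass against wild type 3. UGT71B1 read 8.57, 8.86 and 8.58 in ams and 7.60, 7.66 and 7.82 in wild type (0.98, adjusted p = 0.0166, and 0.85, adjusted p = 0.0818). UF3GT, an anthocyanin glycosyltransferase, read 5.35, 5.31 and 5.37 in ams and 6.01, 6.09 and 5.96 in wild type (-0.68, adjusted p = 0.0214, and -0.61, adjusted p = 0.107). Small as they were, both differences left the genotypes apart. The other flavonoid genes measured, DFR and UGT78D2, were not called.

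Of 26 cytochrome P450 genes CYP71B26 and CYP71B37 rose, beside 2.41% of all genes, a share that also stands beside the families named next. CYP71B37 read 5.11, 5.45 and 4.81 in ams and 4.07, 4.17 and 4.04 in wild type (1.03, adjusted p = 0.0172, and 1.09, adjusted p = 0.0951 against wild type 3). The beta-glucosidase BGLU28 was the 1 rise of 20 in its family, at 8.29, 6.93 and 6.49 in ams and 4.64, 4.63 and 4.14 in wild type (2.77, adjusted p = 0.00861, and 3.10, adjusted p = 0.0681). The carboxypeptidase-like gene scpl50 was the 1 rise of 29, at 7.17, 7.65 and 6.80 in ams and 6.07, 6.14 and 5.93 in wild type (1.16, adjusted p = 0.0365, and 1.27, adjusted p = 0.104). These 3 differences were as large against wild type 3 as against all wild type, and they were not called there, in a test on 4 arrays. In wild type CYP71B37 and BGLU28 averaged below background. Leaving out arrays ended the calls of UGT71B1 (without any 1 ams array or wild type 1 or 2, adjusted p 0.0537 to 0.0817), of UF3GT (those and dyt1 3, 0.0502 to 0.0961), of CYP71B37 (ams 1 or 2 or wild type 1 or 2, 0.056 to 0.0792) and of scpl50 (those and dyt1 1 or 3, 0.0563 to 0.13).

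Against all wild type, AGAMOUS-like factors and photosynthesis genes gave a single call each. The photosynthesis list had 3 measured genes and the light-harvesting and photosystem family 8, with the same 1 rise, beside 2.41% of all genes. Of 40 AGAMOUS-like MADS factors AGL42 fell, beside 1.08% of all genes, at 5.21, 6.09 and 4.78 in ams and 7.91, 8.22 and 7.72 in wild type, 5.999-fold (-2.58, adjusted p = 0.003), and the difference of -2.35 from wild type 3 did not pass (adjusted p = 0.0631). LHCB4.2, an antenna protein of photosystem II, rose 2.35-fold, at 11.4, 11.6 and 11.03 in ams and 10.2, 10.04 and 10.1 in wild type (1.23, adjusted p = 0.00908, and 1.25, adjusted p = 0.06). Its paralogue LHCB4.1 read 12.2, 12.4 and 12.2 in ams and 12.3, 11.9 and 12.1 in wild type (0.13, adjusted p = 0.727). Against all wild type limma called none of 15 SWEET sugar transporters, 7 Aux/IAA and ARF genes, 6 WRKY factors or 9 XTH hydrolases. The 4 gibberellin, 3 carpel, 6 pollen and 4 reference genes were not called either. Against wild type 3 alone some of the SWEET genes were called higher. At an unadjusted p under 0.05 against all wild type stood 4 of the 15 SWEET genes and 3 of the pollen genes. The Aux/IAA and ARF, WRKY and reference genes had 1 each, beside 2847 of all 13355 genes.

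Plastid-encoded genes differed from wild type 1 and 2 more than from wild type 3. Their median level was 7.86, 8.00 and 8.25 in ams 1 to 3, against 9.28, 10.01 and 8.49 in wild type 1 to 3. The 69 genes had a median difference of -1.37 from wild type 1 and 2 and of -0.41 from wild type 3. By limma 0 of them were called against all wild type, with 21 at an unadjusted p under 0.05, beside 2847 of all 13355 genes. In 34 of the 69 every ams array lay below all 3 wild-type arrays, wild type 3 included, and in 1 above. Over all 13355 genes these counts were 2276 and 1652. The share of the 25S signal in these differences was not tested.

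Leaving out wild type 3 gave many more calls, and many of them were genes at which wild type 3 stood with ams. Without it 2407 genes were called, and 259 of these were also called against wild type 3 in the same direction, 192 higher and 67 lower, while 28 were called against it in the opposite direction. Of the 2407, 1522 had an ams mean within 0.5 of wild type 3 on the log2 scale, 509 of them above and 1013 below wild type 1 and 2. The share of all genes within 0.5 of wild type 3 was not counted. Their median difference from it was -0.05, so many genes that were not called may lie as near. The values of the following examples were known when they were chosen.

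The carboxypeptidase-like gene scpl48 read 10.9, 10.9 and 11.3 in ams, against 8.27, 8.57 and 11.4 in wild type. SWEET4 read 6.68, 6.36 and 6.52 in ams and 8.71, 8.58 and 6.57 in wild type. UGT87A2 read 7.18, 6.92 and 7.13 in ams and 5.37, 5.15 and 7.00 in wild type. In each of these wild type 3 lay within 0.5 of the ams mean and apart from the other wild-type arrays, and none was called over all 3 wild-type arrays. CCS, the copper chaperone of superoxide dismutase, read 9.87, 10.3 and 10.1 in ams and 8.02, 8.78 and 10.2 in wild type, and DFR, an enzyme of anthocyanin synthesis, 4.16, 4.02 and 4.18 in ams and 6.47, 5.11 and 4.23 in wild type.

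A further 467 genes were called against wild type 3 alone and not against all wild type. The following examples were chosen after their values were seen, among genes with wild type 3 far from wild type 1 and 2. That trait was the choice and describes no other gene. In others called against wild type 3 alone, such as CP1 and UGT74F1 below, the 3 wild-type arrays lay close together. The ubiquitin ligase PUB23 read 5.32, 4.66 and 4.95 in ams and 5.44, 5.28 and 7.99 in wild type (-3.01 against wild type 3, adjusted p = 0.0107). CHIL, a chalcone isomerase-like protein, read 9.60, 9.64 and 9.44 in ams and 9.37, 9.73 and 11.4 in wild type (-1.89, adjusted p = 0.0114). The beta-expansin EXPB3 read 7.90, 7.94 and 7.28 in ams and 7.82, 7.68 and 6.02 in wild type (1.69, adjusted p = 0.0457). In these, ams overlapped or nearly met wild type 1 and 2.

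For 50 genes, 41 higher and 9 lower in ams, the call depended on whether the 3 dyt1 arrays entered the pooled spread: they were called over the 6 ams and wild-type arrays and against wild type 3, but not over 9. They were picked out after the data were seen. NDB3, an NADH dehydrogenase of the mitochondrion, read 8.90, 8.94 and 9.09 in ams and 6.11, 6.35 and 5.68 in wild type (2.93, adjusted p = 0.137 over 9 arrays, and 3.30 against wild type 3, adjusted p = 0.00432). The cysteine proteinase CP1 read 10.01, 10.5 and 9.82 in ams and 6.70, 7.04 and 6.83 in wild type (3.27, adjusted p = 0.213, and 3.30, adjusted p = 0.0105), with 12.5, 6.51 and 12.5 in dyt1. UGT74F1, a glucosyltransferase of salicylic acid, read 8.44, 7.79 and 8.14 in ams and 5.89, 5.72 and 5.56 in wild type (2.40, adjusted p = 0.0681, and 2.57, adjusted p = 0.0151). SUFE2, which activates the sulphur donor of iron-sulphur cluster assembly, read 8.97, 8.98 and 8.55 in ams and 5.68, 5.85 and 5.09 in wild type (3.29, adjusted p = 0.0571, and 3.74, adjusted p = 0.00536).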

How the data were processed

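The values are log2 expression per probe set as deposited by the authors. The submitters' processing notes name RMA without a version. That method subtracts background, normalizes by quantiles and summarises probes, and it compresses the folds of dim probe sets. Whether all arrays were normalized together, and the array's genome build, are not given in the sources used here. No coordinates are printed. The table held 22810 probe sets, 64 of them controls. Of the 22746 tested, 13513 named 1 gene, 503 several and 8730 were not listed. Names came from the platform annotation, and 13436 matched RefSeq TAIR10.1 by gene ID and 48 by locus. Of 147 genes with more than 1 probe set, 7 had unequal calls.

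Group means were fitted with lmFit and eBayes of limma 3.58.1 (R 4.3.3), over all 9 arrays for ams minus wild type and over 4 arrays for ams minus wild type 3. Samples were grouped by their titles. The number of arrays limits the precision. The pipeline was tested on simulated data with normal, independent spread. There the test over 9 arrays recovered 22.5% of 2-fold and 86% of 4-fold changes. The test against wild type 3 recovered 0% and 49%, so a gene not called in it may still differ. Named genes were AMS, the 5 largest rises and falls called in both comparisons and the 12 largest with a symbol, ranked by the smaller difference, up to 4 called genes per list or family, and tapetal and meiotic list members; others are said to be chosen after their values were seen. The 15 lists (243 genes, 57 measured), the families and the comparison itself were chosen with earlier results of these data known. The labels' replicate numbers were not taken as pairs. Correlations of deviations between ams and wild-type arrays of the same number were -0.012, 0.123 and 0.237, which cannot settle whether the arrays were paired. Plastid-encoded genes were taken by chromosome.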

Additional observations from a re-analysis of the deposited data

How the results depend on the processing

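The called probe sets numbered 798 against all wild type, 1201 against wild type 3 and 367 in both. Without 1 array at a time these ranged from 279 (without wild type 1) to 4146 (without wild type 3), from 523 (without ams 1) to 733 (without ams 3) and from 151 (without ams 1) to 509 (without dyt1 2). Omitting dyt1 arrays was added after seeing the data. The probe sets brighter than the median alone gave 256, 741 and 169 calls, and an adjusted p under 0.01 gave 259, 143 and 59. Array weights gave 8916 calls against all wild type (3954 higher and 4962 lower) and 644 in both. Treating genotype and 25S class as 5 groups gave 2903 against wild type 3 and 646 in both. The cause of these shifts was not tested. With the labels' number as a replicate block, 545 were called against all wild type and 328 in both. Centring on the median, renewed quantile normalization, limma-trend, the 6 arrays alone, the 25S covariate, kept controls and a 2-fold limit kept the counts within 1.5 times. Among the single genes and list members, 2920 of the recomputed values stayed on their side of the threshold, 203 lost and 115 gained a call, and no called value turned its sign. The values carry no detection calls, so dim genes limit what a difference can show.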
